A study of Mus musculus with 4 samples.

Results

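A set of 8 genes with large signal rises on both lymphoma arrays was examined among the 19938 mouse genes named on a whole-transcript expression array. They are Vwde, Tmem45a, Cd109, Vat1l, Aoc1, Ak4, Olfr60 and Tmem63c, and they were chosen by their measured intensities, high on both lymphoma arrays and low on both wild type arrays. The lymphoma and wild type values given for them are therefore a description, and no test of that difference is reported. Every probe set that carries exactly 1 of these symbols was used, which gave 9 probe sets, a pair for Ak4 and a single one for each of the other genes.

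The arrays measured total RNA of CD4+ cells taken from spleens of C57BL/6 mice. The 2 lymphoma samples were CD4+ lymphoma cells of mice that carry the Tet2 gene trap on both alleles, and the 2 wild type samples were CD4+ splenocytes of control mice. Tet2 encodes an enzyme that starts the removal of DNA methylation, and a gene trap is a cassette inserted to interrupt the transcript. Both groups were collected in the same way, with a biotinylated CD4 antibody and a magnetic column after lysis of red cells. The labels give neither age, nor sex, nor the number of animals behind a sample. Loss of Tet2 and the malignant state come together in the lymphoma group and cannot be told apart. The arrays were alike in overall brightness, with median intensities of 138 and 130 on the lymphoma arrays and 142 and 141 on the wild type arrays. Tet2 had 596 and 399 in lymphoma, against 980 and 1016 in wild type, and its difference of -1.03 on the log2 scale did not pass the threshold (adjusted p = 0.077, limma with Benjamini-Hochberg adjustment over all genes). Lymphoma array 1 stood apart in a few genes singled out after their values were seen. It had 2762 for the matrix gene Dcn, against 50.8 on lymphoma array 2. Dcn was 1 of 7 measured fibroblast and stroma markers, of which limma called none. The differences of the others lay between -0.20 and -0.02. Lymphoma array 1 also showed signal both for Xist and for Y-linked genes. Of the remaining arrays, lymphoma 2 and wild type 1 showed Xist, and wild type 2 showed Y-linked genes. Xist had 5421 on wild type array 1 and 42.0 on wild type array 2. The 2 arrays of each group thus differed in sex-linked signal and were not repeats of 1 RNA sample. How much of the spread between them is technical was not measurable.

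The 8 genes belong to no single pathway, and most are known from tissues other than lymphocytes. CD109 is a surface glycoprotein with a lipid anchor, related to alpha-2-macroglobulin, that binds TGF-beta and its receptors. In human blood it is known from activated T cells and platelets. Tmem45a encodes a multi-pass membrane protein studied in epidermis, Vwde a large protein with von Willebrand D and EGF-like domains, and Vat1l a relative of quinone oxidoreductases found in neurons. AOC1 is the diamine oxidase that breaks down histamine and putrescine, best known in kidney, gut and placenta. AK4 is an adenylate kinase of the mitochondrial matrix and a known target of the hypoxia-inducible factor. Olfr60 belongs to the olfactory receptors, and Tmem63c to a family of channels that open on membrane stretch, studied in kidney and brain.

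Promoter sequences are shown because these genes were picked for large rises on both lymphoma arrays, so that a reader can compare the sequence upstream of their starts. RefSeq windows of 250 bases upstream of an annotated start (build GRCm38.p6) matched 7 of the 8 genes with 12 windows, since several genes have more than 1 start. Cd109 was not matched. The searched letters were TGANTCA (the AP-1 site), ACGTG and GCGTG (hypoxia response cores), TATAAA and TGTGGT (the core of Runx sites), on both strands. Capitals mark the matches. Only windows with a match are printed, and not all of those. The Vat1l window and the upstream windows of Aoc1 and Tmem63c held none. The windows lie at chr6:13224966-13225215 (minus strand) for Vwde, chr16:56886164-56886413 (minus strand) for Tmem45a, chr6:48904736-48904985 (plus strand) for the downstream start of Aoc1, chr4:101419039-101419288 (plus strand) for the most upstream start of Ak4 and chr7:140345988-140346237 (minus strand) for Olfr60.
Vwde: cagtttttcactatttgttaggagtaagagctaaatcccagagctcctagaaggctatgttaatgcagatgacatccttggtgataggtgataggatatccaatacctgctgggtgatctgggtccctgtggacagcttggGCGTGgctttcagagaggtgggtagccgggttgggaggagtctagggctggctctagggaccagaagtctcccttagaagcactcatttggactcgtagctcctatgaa
Tmem45a: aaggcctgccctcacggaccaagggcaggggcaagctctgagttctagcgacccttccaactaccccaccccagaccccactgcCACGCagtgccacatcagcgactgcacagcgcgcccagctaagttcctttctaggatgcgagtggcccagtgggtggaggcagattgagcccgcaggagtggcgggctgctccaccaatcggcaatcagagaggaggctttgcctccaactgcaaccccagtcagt
Aoc1: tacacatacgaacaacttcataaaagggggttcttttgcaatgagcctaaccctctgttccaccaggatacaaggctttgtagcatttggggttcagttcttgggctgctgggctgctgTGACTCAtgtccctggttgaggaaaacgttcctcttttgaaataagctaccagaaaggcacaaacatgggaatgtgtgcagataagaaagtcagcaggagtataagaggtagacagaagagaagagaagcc
Ak4: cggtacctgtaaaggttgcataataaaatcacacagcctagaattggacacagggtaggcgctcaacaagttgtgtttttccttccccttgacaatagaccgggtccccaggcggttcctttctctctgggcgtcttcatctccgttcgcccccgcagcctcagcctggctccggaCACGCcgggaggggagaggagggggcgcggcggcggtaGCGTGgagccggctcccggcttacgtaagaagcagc
Olfr60: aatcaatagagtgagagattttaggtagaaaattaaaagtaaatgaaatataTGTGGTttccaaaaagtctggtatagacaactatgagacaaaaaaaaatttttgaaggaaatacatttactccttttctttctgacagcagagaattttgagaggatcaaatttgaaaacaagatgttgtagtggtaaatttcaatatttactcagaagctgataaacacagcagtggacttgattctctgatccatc

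The upstream windows differed widely in base composition. The Ak4 window held 19 CpG dinucleotides at 60.4% GC, and its other 3 windows held 22 to 24. The Olfr60 window held 0 CpG at 30.4% GC, the Aoc1 windows 1 and 2, and the Vwde window 3. Tmem45a and Vat1l had 10 each and the Tmem63c windows 4 and 5, against a median of 6 over the 32851 windows of the table. No searched motif was found in all of the genes. GCGTG occurred in 6 of the 12 windows, which belong to 4 genes (Vwde, Tmem45a, Ak4 and Tmem63c), while 28.2% of all windows hold it. Of these 6 windows, 3 are Ak4 windows that overlap and share the same matches. ACGTG occurred in 1 Ak4 window, where both strands of an overlapping palindrome match (16.6% of all windows), and TGANTCA occurred in the downstream Aoc1 window (6.75%). TATAAA was found only in a Tmem63c window (12.4%) and TGTGGT only in the Olfr60 window (14.1%). A match is a description of letters and no match says only that these letters are not in this window.

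Of the genes for surface and secreted proteins, Vwde had the largest difference of all 19938 genes. Its intensity was 2604 and 2527 in lymphoma, against 76.4 and 85.4 in wild type, with array 1 before array 2 here and in each pair that follows. In log2 units the means were 11.32 ± 0.03 in lymphoma and 6.34 ± 0.11 in wild type (SD, n = 2 each), a difference of 4.99 or 31.8-fold. The 2 lymphoma values lay within 1.03-fold of each other. Tmem45a had 1050.3 and 1316 in lymphoma, against 47.9 on each wild type array, a difference of 4.62 or 24.5-fold. Cd109 had 1509 and 1308 in lymphoma, against 74.2 and 60.4 in wild type, a difference of 4.39 or 21.0-fold. For these 3 genes the groups were far apart, and the smallest of the 4 possible lymphoma to wild type ratios was 29.6-fold for Vwde, 21.9-fold for Tmem45a and 17.6-fold for Cd109. Both lymphoma values lay above both wild type values for all 8 genes, a condition that 20.6% of all genes met and that the choice of these genes fixed.

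The enzymes behaved less alike. Vat1l, the oxidoreductase relative, had 1531 and 998 in lymphoma, against 61.0 and 69.4 in wild type. Its log2 difference was 4.25, and the smallest lymphoma to wild type ratio was 14.4-fold, with lymphoma array 2 the lower of the lymphoma pair. Aoc1, the diamine oxidase, had 773 and 3158 in lymphoma, against 111 and 73.0 in wild type. Its difference of 4.11 therefore joins a moderate and a high lymphoma array, and leaving out lymphoma array 1 gave 5.13, leaving out lymphoma array 2 gave 3.10. The brighter Ak4 probe set had 1053 and 1048 in lymphoma, against 75.3 and 67.5 in wild type. This is a difference of 3.88 or 14.7-fold, with almost equal lymphoma values. The dimmer Ak4 probe set had 227 and 279.9 in lymphoma, against 102 and 123 in wild type. Its difference was 1.17 or 2.25-fold, in the same direction, so the pair disagreed on size, and their average difference was 2.53. RefSeq also lists an adenylate kinase pseudogene, Ak3l2-ps, on chromosome 2, and which transcripts each Ak4 probe set reads was not tested.

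The receptor and the channel gave contrasting patterns. Olfr60 had 225 and 995 in lymphoma, against 37.1 and 32.1 in wild type. Its mean log2 value was 8.89 ± 1.52 in lymphoma and 5.11 ± 0.15 in wild type (SD, n = 2 each), a difference of 3.78, or 4.85 without lymphoma array 1 and 2.71 without lymphoma array 2. Olfr60 was thus high mainly on lymphoma array 2 but was raised on both. Tmem63c had 1355 and 1291 in lymphoma, against 123 and 105 in wild type, a difference of 3.54 or 11.6-fold with near-equal lymphoma values.

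**Figure D1:**
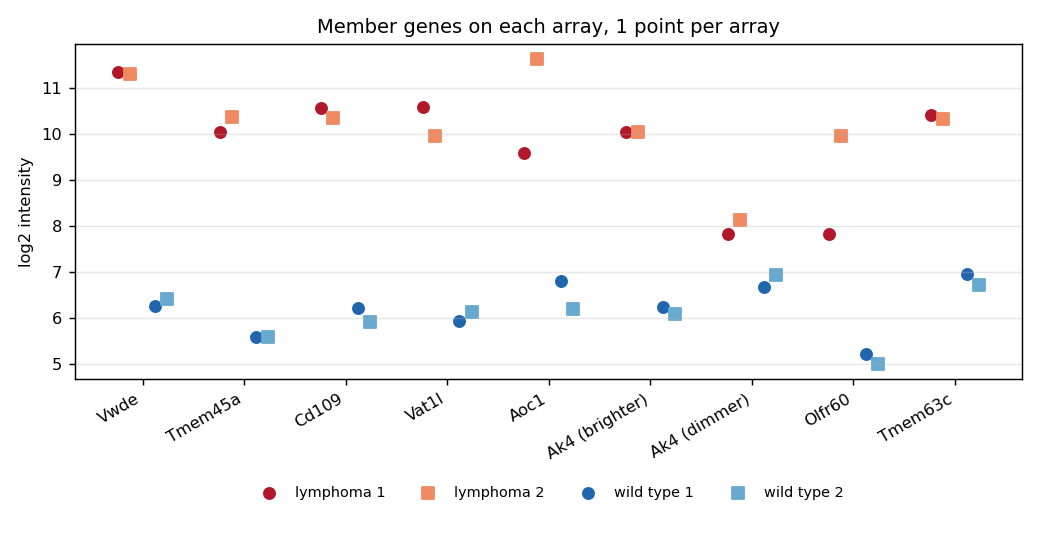
The log2 intensity of each member probe set is plotted with 1 point per array, lymphoma arrays in red tones and wild type arrays in blue tones. Lymphoma points lie above wild type points for all 9 probe sets, the pairs of Aoc1 and Olfr60 are widely spaced, and the dimmer Ak4 probe set shows the smallest separation.

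The wild type signals were dim, but no detection call was used here, so background could not be set for these probe sets. Between 13.1% and 46.3% of all 35556 probe sets were dimmer than the brighter or only probe set of each gene on a wild type array, with Olfr60 lowest and Tmem63c highest. On the lymphoma arrays this share was 60.6% to 97.2%. These shares place a signal on the array's intensity scale and do not give an amount of transcript, since probe sets differ in affinity. The data thus show dim wild type signals, and whether the genes were silent in wild type CD4+ cells was not measurable here.

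The members were also ranked by the gap between groups, with the 10 next genes. The gap is the lowest lymphoma value minus the highest wild type value on the log2 scale, taken over 7724 genes that were below the array median on both wild type arrays, without predicted and non-coding models, antigen receptor segments, Xist and a short list of Y-linked genes. Other X-linked genes were kept. The members held places 1 to 7 and 10. Ak4 stood at place 5 by its brighter probe set, while its dimmer one had a gap of only 0.89. Osmr, a receptor chain for oncostatin M, had a gap of 2.73 and Tead1, a DNA-binding partner of the Hippo pathway, had 2.62, both just above the 2.60 of Olfr60. Tcp11x2 followed with 2.52, then Ica1l (2.51) and Ica1 (2.32), paralogs that encode proteins of the islet autoantigen family. The matrix glycoprotein Thbs2 had 2.43, the aspartyl protease Bace2 2.41, the actin bundler Pls3 2.33, Jakmip2 2.32 and the planar polarity protein Vangl1 2.26. A gap of at least 2 was reached by 28 of these genes and a gap of at least 3 by 6, all of them members. Ranked instead by the mean difference over all genes, Vdr (3.68), the vitamin D receptor, fell between Olfr60 (3.78) and Tmem63c (3.54). Its wild type values of 331 and 265 were not below the array median.

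**Figure D2:**
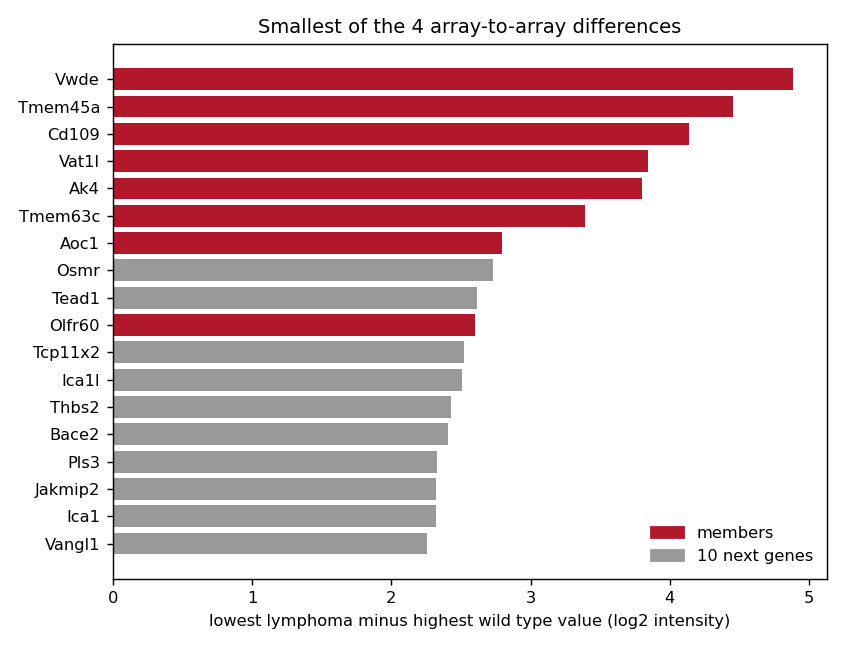
Bars give the lowest lymphoma value minus the highest wild type value in log2 intensity, in red for the 8 members and in grey for the 10 next genes with dim wild type values. Vwde stands highest at 4.89, and Osmr and Tead1 lie just above Olfr60. The Ak4 bar is that of its brighter probe set.

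The pattern over 4 arrays was compared with every other gene by Euclidean distance after the wild type mean of each gene was subtracted. This distance depends largely on the size of the rise, by which the members were chosen. Ak4 entered by its brighter probe set only. Vdr was the nearest gene outside the set for 6 of the members, at distances from 0.48 for Tmem63c to 1.93 for Vwde. Outside the set Vdr also had the largest mean difference, so its place here was largely fixed by that size. Vdr had 4822 and 2995 in lymphoma, against 331 and 265 in wild type. Shared regulation was not tested. For Aoc1 and Olfr60 the nearest was Garem1, an adaptor of growth factor receptor signalling, at distances of 1.40 and 0.92. Garem1 had 260.2 and 1395 in lymphoma, against 78.4 and 58.6 in wild type, and so was also higher on lymphoma array 2. Aoc1 and Olfr60 were each other's nearest gene when members were allowed, at 0.56.

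The lymphoma arrays were compared with each other, a difference that the choice of members did not use directly. For 6 members they lay within 1.53-fold of each other. Lymphoma array 2 minus lymphoma array 1 was 2.03 for Aoc1 and 2.14 for Olfr60 on the log2 scale, or 4.09-fold and 4.42-fold. Over all genes the absolute difference had a median of 0.21 and a 95th percentile of 0.90, and these 2 members lay above it. Vat1l came next with -0.62, and the brighter Ak4 probe set with -0.01 was among the most alike. The dimmer Ak4 probe set had 0.30. Between the wild type arrays the 95th percentile was 0.69 and 0 members lay above it, with -0.61 for Aoc1 the largest in size. With 1 array on each side these differences have no test.

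**Figure D3:**
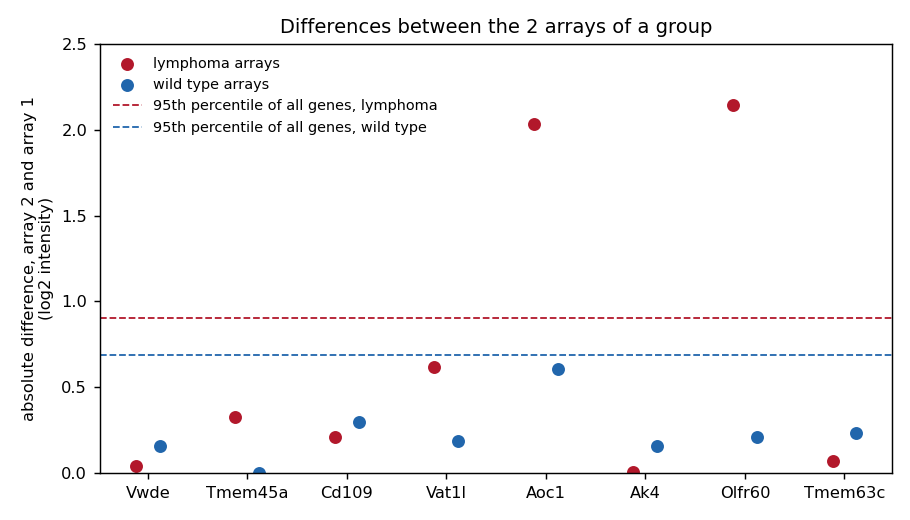
Points give the absolute log2 difference between the 2 arrays of a group for each member, lymphoma in red and wild type in blue, and dashed lines mark the 95th percentile over all 19938 genes. Only the lymphoma points of Aoc1 and Olfr60 lie above the lines, at 2.03 and 2.14. The Ak4 points are those of its brighter probe set.

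Few genes related to the members by family or pathway passed the test. Over the 91 measured of 101 listed relatives, olfactory receptors aside, 3 rose and 1 fell at an adjusted p under 0.05 in limma, against 1.82% of all genes called higher, 2.46% called lower and 4.27% called either way. That is 3.30% and 1.10% of the relatives, and their median difference was -0.05, against -0.04 over all genes. None of the 91 reached the size of any member, with Ak4 taken by its brighter probe set. The choice of the members for their size largely fixes this. At an unadjusted p under 0.05 limma gave 15 higher (16.5%) and 9 lower (9.89%) relatives, against 8.73% of all genes higher and 6.92% lower. With a wild type array removed no gene of any list, nor any gene of the whole array, passed in limma, and at an unadjusted p under 0.05 the fit then gave 8 higher and 3 lower relatives (8.79% and 3.30%) without wild type array 1, against 7.11% and 4.46% of all genes. Without wild type array 2 it gave 8 higher and 5 lower relatives (8.79% and 5.49%), against 4.66% and 5.62% of all genes.

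Hypoxia response genes gave 2 of the 4 calls among the relatives. Of 16 measured genes, 2 rose and none fell, against 1.82% of all genes called higher and 2.46% called lower. Of the 16, 12 had a positive difference, and the median difference was 0.50, against -0.04 over all genes. At an unadjusted p under 0.05, 6 were higher and 1 was lower in limma, against 8.73% of all genes higher and 6.92% lower. Bnip3, a mitochondrial protein that directs mitophagy, had 561 and 613 in lymphoma, against 186 and 142 in wild type, a difference of 1.85 (SE 0.21, adjusted p = 0.0083, limma). Pgk1, a glycolytic kinase, had 4528 and 4657 in lymphoma, against 1766 and 1776 in wild type, a difference of 1.37 (SE 0.15, adjusted p = 0.0080, limma). The groups do not overlap for either gene. Hk2 (0.86), Slc2a1 (0.82) and Ldha (0.70), which serve glucose uptake and use, had adjusted p-values of 0.0501, 0.063 and 0.067 in limma and were named after their values were seen. The lowest of the list was Adm, which encodes the vasodilator peptide adrenomedullin, at -0.52, and it was not called. Of the 8 measured nucleotide kinases related to Ak4, 0 were called, with 4 positive differences and a range from -0.57 for Ak8 to 0.47 for Cmpk2. At an unadjusted p under 0.05 limma gave 1 of these kinases, which was lower.

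Around Aoc1, 1 of 12 measured amine and polyamine genes rose and none fell. At an unadjusted p under 0.05 limma gave 3 higher and 0 lower, against 8.73% of all genes higher and 6.92% lower. Odc1, the enzyme that makes putrescine, had 2449 and 3581 in lymphoma, against 881 and 979 in wild type. The difference was 1.67 (SE 0.23, adjusted p = 0.015, limma), and like Aoc1 it was highest on lymphoma array 2. Of 14 genes of the TGF-beta pathway, to which Cd109 binds, 1 fell and none rose. At an unadjusted p under 0.05 limma gave 2 higher and 4 lower of these 14, against 8.73% of all genes higher and 6.92% lower. Tgfbr3, a co-receptor for TGF-beta, had 246 and 159 in lymphoma, against 638 and 583 in wild type, a difference of -1.63 (SE 0.25, adjusted p = 0.022, limma). Among the 7 measured relatives of Cd109 none was called by limma, and 0 were at an unadjusted p under 0.05. Hc, complement C5, had 81.7 and 924 in lymphoma, against 64.2 and 56.1 in wild type, and differed by 2.19 (adjusted p = 0.38, limma) with the signal on lymphoma array 2.

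No relative of Vwde, Tmem45a, Vat1l or Tmem63c was called by limma, and at an unadjusted p under 0.05 there were 4 higher and 3 lower among these 34 genes, or 11.8% and 8.82%, against 8.73% and 6.92% of all genes. The 12 von Willebrand D domain genes ranged from -0.32 for Vwf to 0.85 for Sspo, with 374 and 194 for Sspo in lymphoma, against 149 and 151 in wild type. Tmem45b and Tmem45a2 differed by -0.07 and -0.08, where Tmem45a itself differed by 4.62. The 8 relatives of Vat1l lay between -0.18 for Vat1 and 0.59 for Cryz. Tmem63a, a paralog of Tmem63c, differed by -0.61 (adjusted p = 0.18, limma), with 1032 and 804 in lymphoma, against 1397 and 1382 in wild type. Tmc3 was the highest of the 12 mechanosensitive channel genes at 1.40 (adjusted p = 0.24, limma), with 205 and 635 in lymphoma, against 152 and 123 in wild type.

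**Figure D4:**
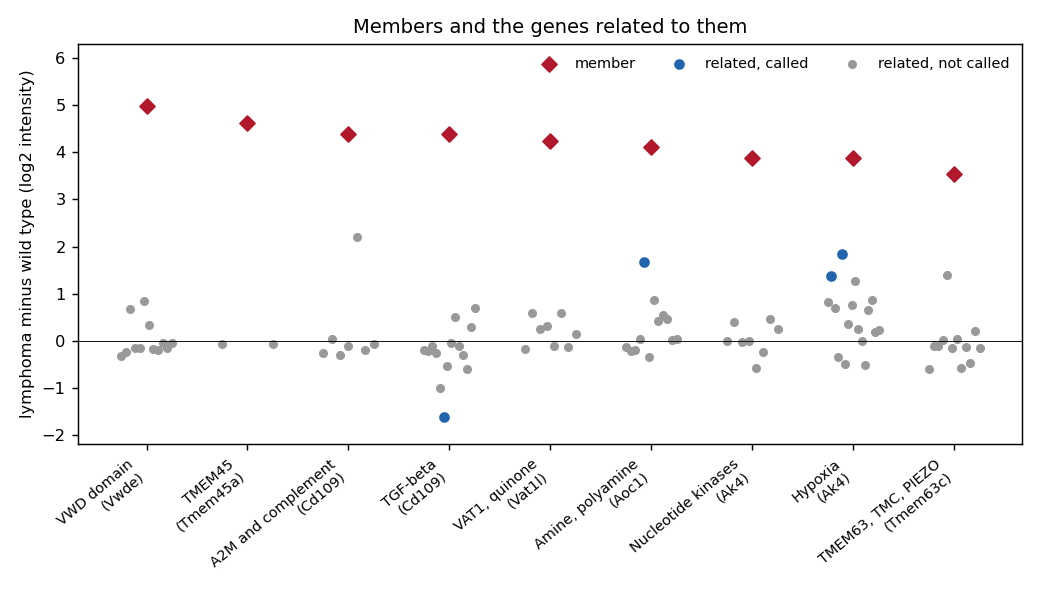
Each column holds 1 list of relatives, with the member gene as a red diamond, called relatives in blue and other relatives in grey, on an axis of lymphoma minus wild type in log2 intensity. The members lie between 3.54 and 4.99, and the called relatives are Odc1, Bnip3 and Pgk1 above zero and Tgfbr3 below it. Ak4 is drawn by its brighter probe set, and its dimmer one differed by 1.17.

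Olfr60 was compared with the other 1026 measured olfactory receptor genes. None of them was called in either direction by limma, against 4.27% of all genes. An unadjusted p under 0.05 was reached by 1 higher and 7 lower genes, against 8.73% of all genes higher and 6.92% lower. Both receptor counts are thus far below the shares over all genes. Their median difference was -0.10, and 90% of them lay between the 5th percentile of -0.37 and the 95th of 0.17. The lowest was Olfr111, with 28.4 and 46.4 in lymphoma, against 84.9 and 58.4 in wild type, a difference of -0.96 (adjusted p = 0.18, limma). Apart from Olfr60, 1 receptor gene differed by at least 1 on the log2 scale. It was Olfr530, the measured gene next to Olfr60 on chromosome 7, with 92.1 and 413 in lymphoma, against 49.3 and 42.4 in wild type, a difference of 2.09 (SE 0.64, adjusted p = 0.16, limma). It too was highest on lymphoma array 2, and the next highest receptor gene differed by 0.53. Olfr531, Olfr527 and Olfr525, also near Olfr60, differed by 0.20, 0.13 and 0.12. A further 3 probe sets list Olfr60 beside 7 or 8 other receptor symbols and were assigned to no gene. Their log2 differences were 1.16, 1.19 and 1.77, and each was highest on lymphoma array 2. Which of these receptors the signal comes from was not tested.

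**Figure D5:**
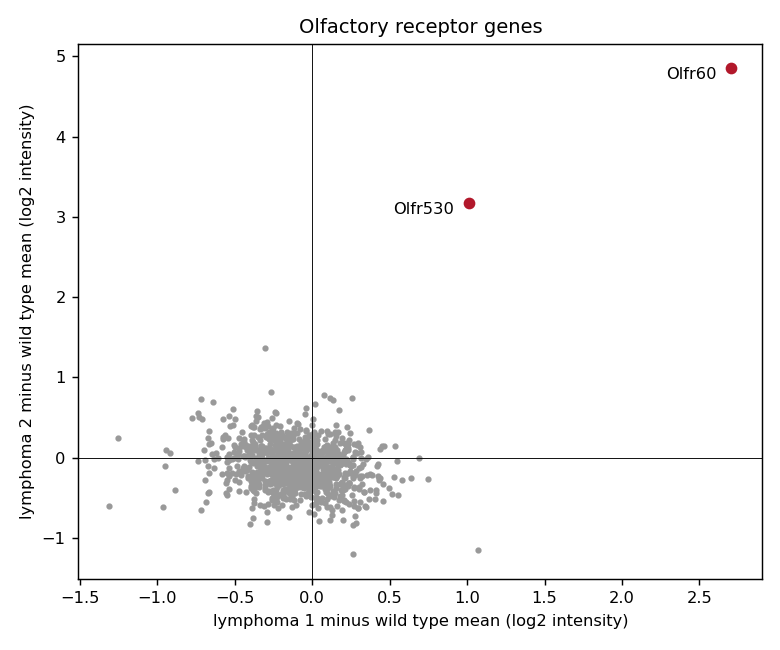
Each point is 1 olfactory receptor gene, with lymphoma array 1 minus the wild type mean on the horizontal axis and lymphoma array 2 minus the wild type mean on the vertical axis, both in log2 intensity. Olfr60 at 2.71 and 4.85 and its neighbour Olfr530 stand apart from the other genes, which cluster around zero.

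The nearest 3 measured genes on each side of each member were taken from RefSeq gene order. Of these 48 neighbours, 1 was called higher (2.08%) and 1 lower by limma, near the 1.82% and 2.46% of all genes. Their median difference was -0.02, against -0.04 over all genes. The gene called higher was Maf, a transcription factor of helper T cells that lies near Vat1l, with 5757 and 5672 in lymphoma, against 3379 and 3002 in wild type (difference 0.84, SE 0.15, adjusted p = 0.033, limma). Raver2, near Ak4, differed by -1.35 (adjusted p = 0.022, limma). Beside Aoc1 lie Doxl1, Doxl2 and Svs1, whose differences were -0.01, 0.02 and 0.06. The members themselves lie on chromosomes 4, 6, 7, 8, 9, 12 and 16, with Vwde and Aoc1 both on chromosome 6.

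The labelled cell type was checked against its markers. Of 5 measured T cell markers, Cd4 had 5839 and 7134 in lymphoma, against 4552 and 5153 in wild type, and none of the 5 was called by limma, while an unadjusted p under 0.05 was reached by 4 that were higher and 1 that was lower. All 5 measured B cell markers fell, and their summed intensity was 1938 and 777 in lymphoma, against 13625 and 8987 in wild type. Of the markers of macrophages and monocytes 4 of 6 fell, with summed intensities of 1903 and 2909 in lymphoma, against 7668 and 8245 in wild type, and of dendritic cells 5 of 6 fell, with 629 and 645 in lymphoma, against 4214 and 3657 in wild type. Other lists held few calls. Of 6 neutrophil markers 1 rose, Ngp, a neutrophil granule protein, at 349 and 376 in lymphoma, against 134 and 125 in wild type (difference 1.49, adjusted p = 0.0093, limma), and the summed intensity was 876 and 855 in lymphoma, against 576 and 590 in wild type. Of 4 plasma cell markers 1 fell, Jchain, with summed intensities of 2940.4 and 3478 in lymphoma, against 10417 and 6333 in wild type. At an unadjusted p under 0.05 limma gave 2 lower and 0 higher plasma cell markers. Prdm1, of the same list, differed by 0.53 and was not called. Of 4 NK cell markers 1 fell, Klrk1, and the summed intensity was 930 and 1187 in lymphoma, against 875 and 712 in wild type. Most of that sum is Eomes, with 816 and 901 in lymphoma, against 538 and 431 in wild type (difference 0.83, adjusted p = 0.085, limma). Ncr1 and Klrb1c differed by -0.85 and -0.50 and were not called. At an unadjusted p under 0.05 limma gave 1 higher and 2 lower NK cell markers. None of the 2 CD8 T cell, 2 erythroid and 5 endothelial markers was called by limma, and at an unadjusted p under 0.05 there were 2 lower CD8 T cell markers, 0 erythroid ones and 1 lower endothelial marker. In bulk samples, fewer cells of a type and less RNA per cell cannot be told apart. The part of these changes in the values of the members was not tested.

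Markers of the tissues in which the members are best known were also measured. None of 7 markers of olfactory sensory neurons was called by limma and 0 were at an unadjusted p under 0.05. Their summed intensity was 930 and 844 in lymphoma, against 871 and 847 in wild type. None of 9 epithelial, 5 kidney tubule, 2 podocyte and 5 intestinal markers was called by limma, and at an unadjusted p under 0.05 there were 3 higher and 1 lower epithelial markers and 0 of the other tissues. Over all genes 8.73% were higher and 6.92% lower at that unadjusted threshold. Summed epithelial intensity was 1050.2 and 1127 in lymphoma, against 1009.7 and 1005 in wild type. Of 7 neuronal markers, Map2, a microtubule-associated protein, rose by 2.12 (adjusted p = 0.0038, limma), with 697 and 734 in lymphoma, against 163 and 167 in wild type. The other 6 neuronal markers lay between -0.21 for Syt1 and 0.20 for Stmn2.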

How the data were processed

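Each sample was hybridised to 1 single-channel Affymetrix array after biotin labelling, per the labels' protocols. The intensity values are the authors' deposited values, 1 per probe set on a linear scale, made with Affymetrix Expression Console per the submitters' processing notes. Not given in the sources used here are its version and how background, summarisation and normalization were handled. Here log2 was taken with no pseudocount or filter. Of 35556 probe sets, 21789 had 1 gene symbol in GEO's platform annotation, 1621 had several and 12146 were not listed. The probe set with the highest mean stood for each of 19938 genes.

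Groups were compared with limma 3.58.1 (R 4.3.3), a model with no covariate besides group, eBayes with a trend of variance on level, and Benjamini-Hochberg adjustment at 0.05. The number of arrays limits the precision: the median SE of a log2 difference was 0.20. On simulated data with 19938 genes for this comparison, the fit recovered 10% of the genes shifted by 1 log2 unit and 86% of those shifted by 2, with 9 unchanged genes called. The simulation raised 50 genes at each size, upward only, with noise drawn from the fitted variance prior. In the data 852 genes were called in both directions, so these shares need not carry over. The members and gene lists were chosen with earlier results of these data known. Named relatives are the called ones, up to 6 per list, or 1 or both of the 2 largest differences where none was called. Further named genes are the 10 next by gap, the nearest in pattern, called neighbours and Tet2. Exceptions, named after their values were seen, are Dcn, Xist, Hk2, Slc2a1, Ldha, Adm, Tgfbr2, Cd4, Ngp, Jchain, Prdm1, Klrk1, Eomes, Ncr1, Klrb1c, the olfactory receptors near Olfr60, Doxl1, Doxl2, Svs1, Map2, Syt1, Stmn2, Vat1 and Vwf. Promoter windows are RefSeq's, build GRCm38.p6. Protein sequences were not used here. Alternatives were a pseudocount of 16, quantile normalization, array medians subtracted, averaged probe sets, leaving out the dimmest tercile, other variance models, the replicate number as a block, a threshold of 0.1 and leaving out each array.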

Additional observations from a re-analysis of the deposited data

How the results depend on the processing

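No value reported for a member changed sign under any alternative run. The choice of the members for large rises on both lymphoma arrays largely fixes this. The median difference of the 8 members was 4.18 and became 3.92 with a pseudocount of 16, and removing single arrays gave 4.03 to 4.53. Ak4 was at 2.53 with its probe sets averaged. The relatives called higher numbered 3, and 5 with the dimmest tercile left out and 6 at a threshold of 0.1. Those called lower numbered 1, and 2 at that threshold, 2 with a robust trend and 2 with the replicate block, where Tgfbr2 was added. The same-numbered arrays deviated together at a correlation of 0.23 across genes. The labels give no shared source for a number, and whether same-numbered arrays share one was not tested. With the block, 429 genes were higher and 555 lower, against 362 and 490 without it. At 0.1, 665 genes were called higher. When 1 array was left out, genes called higher ranged from 0 to 1057, genes called lower from 0 to 843, relatives called higher from 0 to 11 and relatives called lower from 0 to 2. The zeros came from leaving out a wild type array, where limma gave 1418 higher and 890 lower genes at an unadjusted p under 0.05 without wild type array 1 and 929 and 1120 without wild type array 2. A group left with 1 array is assumed to vary like the other group. The calls on Bnip3, Pgk1, Odc1 and Tgfbr3 held under each alternative that kept all 4 arrays. Signal over background was not measurable, which limits every fold change of a dim probe set. The cause of these changes was not tested.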
